A study of Mus musculus with 6 samples.

Results

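The SOCS family comprises 8 genes, Cish and Socs1 to Socs7, which encode feedback inhibitors of cytokine signalling. They were taken by name from the 23942 genes of the deposited table, all 8 were present, and the naming rule itself uses no measured value. Bulk RNA sequencing had been run on 6 libraries of mouse liver lymphocytes that the study names group 1 innate lymphoid cells (ILC1s). Of these, 3 libraries were naive ILC1s from the solvent control at day 0 and 3 were memory ILC1s from the treatment labelled OXA at day 30. ILC1s are tissue-resident relatives of natural killer cells and a source of interferon-gamma. What OXA stands for is not written in the labels, which also do not give strain, sex, age or sort, and do not say whether each library came from a separate animal or pool. Treatment and day change together between the groups and cannot be told apart.

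Cytokines that signal through JAK kinases switch on STAT transcription factors, and STATs in turn induce several SOCS genes, whose proteins then damp the same receptors. Each SOCS protein carries an SH2 domain, which binds phosphorylated tyrosine, and a SOCS box, which recruits elongins and the cullin Cul5 into a ubiquitin ligase. Socs1 and Socs3 also carry a short kinase inhibitory region that blocks JAKs directly. Cish, a STAT5 target, restrains interleukin-15 signalling in mouse natural killer cells. Socs2 limits growth hormone signalling, and the remaining members, Socs4 to Socs7, have long N-terminal extensions and are linked mainly to growth factor and insulin receptors.

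The start regions of 3 members are shown because they hold the words that STAT and interferon regulatory factors (IRFs) can bind, which is the feedback these genes are known for. RefSeq windows (build GRCm38.p6, 250 bases before to 50 after the start) were found for 4 of the 8 members, Cish, Socs1, Socs3 and Socs4. Capitals mark TTCNNNGAA, the STAT word, in Cish and Socs3, and the IRF word, GAAA repeated after any 2 bases, in Socs1. Both words were searched on both strands. Each sequence reads 5′ to 3′ on the strand of its gene.
Cish, chr9:107296654-107296683, plus strand: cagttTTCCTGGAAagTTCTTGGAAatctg
Socs3, chr11:117969452-117969616, minus strand: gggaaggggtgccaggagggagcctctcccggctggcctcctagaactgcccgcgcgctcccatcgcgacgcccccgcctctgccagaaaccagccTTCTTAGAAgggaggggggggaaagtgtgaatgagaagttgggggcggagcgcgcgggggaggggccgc
Socs1, chr16:10785537-10785786, minus strand: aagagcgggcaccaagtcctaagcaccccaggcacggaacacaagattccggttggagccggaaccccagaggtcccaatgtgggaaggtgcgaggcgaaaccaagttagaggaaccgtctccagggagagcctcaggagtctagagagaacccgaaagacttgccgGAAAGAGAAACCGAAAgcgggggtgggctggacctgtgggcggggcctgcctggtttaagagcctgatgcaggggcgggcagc

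Cish held the STAT word at 2 places, bases 1 to 9 and 12 to 20 after its RefSeq start. Both lie inside the first exon of a longer annotated Cish transcript. Socs3 held it once, 154 to 146 bases before its start. Of all 32851 windows, 8.30% held the STAT word at least once and 0.457% at least 2 times. The 2 matches of the IRF word in Socs1, GAAAGAGAAA and GAAACCGAAA, overlap each other and lie 83 to 74 and 77 to 68 bases before its start. The IRF word was present in 3.44% of windows. The Socs4 window held neither word.

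Every member was well covered by reads. The libraries held 18697093 to 23795266 reads recovered from the deposited values, and the members had between 245 and 1997 reads in every library. Replicates of a group correlated at 0.981 to 0.985 across genes (Pearson, log2 scale), against 0.971 to 0.976 between groups. Among markers of the labelled cell type, the levels were high for Ncr1 (488 RPKM in naive and 505 in memory libraries), Klrb1c (133 and 131) and Tbx21 (72.1 and 71.8), whereas Eomes, the T-box factor of natural killer cells, was at 0.81 and 1.19. Other natural killer cell genes were in part high (Prf1 89.3 and 83.2, Klra9 31.6 and 24.6) and in part low (Klrg1 2.00 and 2.16). Genes listed for T and B cells were also mixed. Trbc1 was at 192 and 174 and Ighm at 85.0 and 85.4, but Cd3d at 0.65 and 0.80 and Cd79b at 0.86 and 0.80. These levels do not settle the identity or purity of the cells, which was not tested. RPKM sets reads relative to exon length and library total. Levels can be compared between genes only as far as the deposited exon lengths match the transcripts expressed, which was not tested.

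Within the SOCS family, Socs3 was the single gene that differed between memory and naive ILC1s past the threshold, at about 1.49 times the naive level. The other 7 members did not pass. All 8 were expressed in every library and all passed the filter on low values. "Called" means an adjusted p under 0.05 in limma's test on log2(RPKM + 1) across all genes. Of the 13793 genes tested, 4.17% passed, with 3.2% higher in memory and 0.972% lower. A count of 1 among 8 members says nothing about the family beyond Socs3 itself. The median log2 change was 0.05 over the members and 0.02 over all genes tested. The groups did not overlap for 3 members, Socs3, Socs6 and Socs7, and for 24.1% of all genes tested.

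**Figure D1:**
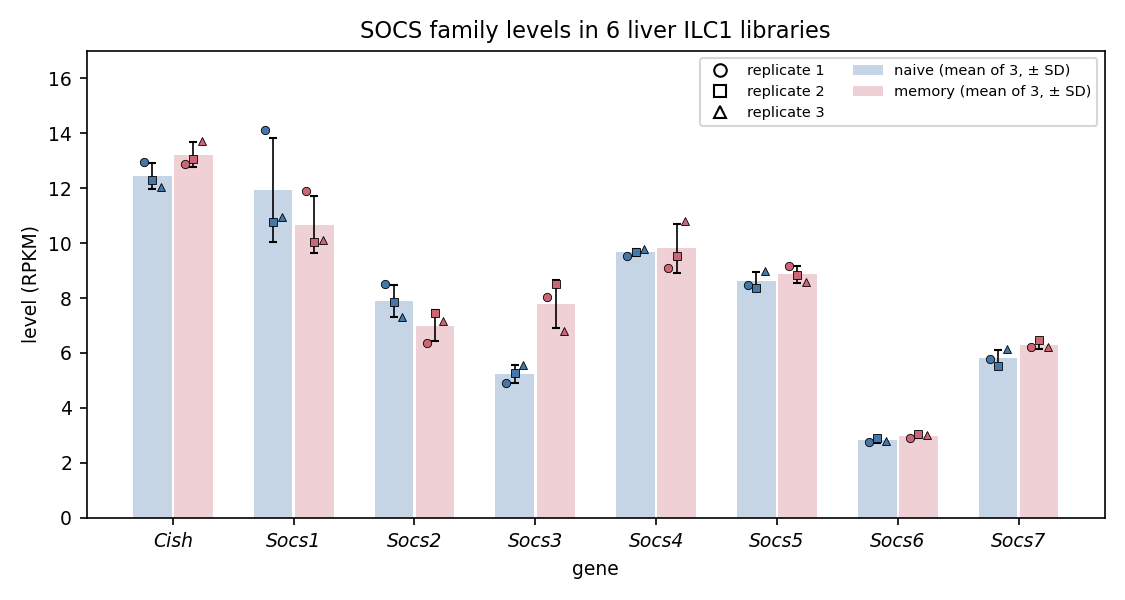
Level of each SOCS family gene in RPKM (vertical axis) in the 3 naive and 3 memory libraries; bars are means, error bars SD, and symbols the replicates. The Socs3 symbols of the memory group (6.81 to 8.52) lie above all of its naive symbols (4.90 to 5.57), and Socs1 in naive replicate 1 (14.1) lies above the other 5 libraries.

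Socs3 binds the shared cytokine receptor gp130 and the receptor of granulocyte colony-stimulating factor, and silences STAT3 signalling from them. It lies on chromosome 11, 117966079 to 117970047 (mm10, minus strand), with 2891 bases of exon. Its level was 4.90, 5.25 and 5.57 RPKM in naive replicates 1 to 3, and 8.04, 8.52 and 6.81 in memory replicates 1 to 3. Every memory library lay above every naive library, and memory replicate 3 was the nearest to the naive group. The number of reads was 265, 309 and 340 in the naive and 494, 586 and 391 in the memory libraries.

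The mean was 5.24 ± 0.33 RPKM for naive and 7.79 ± 0.88 for memory (SD, n = 3 each). The log2 change was 0.49 (SE 0.09, 95% interval 0.27 to 0.71), with a limma adjusted p of 0.0359, and 6.42% of tested genes had a larger absolute change. The exact two-sided permutation p of 0.1 is the smallest that 3 against 3 libraries can give. The direction held in all 14 alternatives, with log2 changes of 0.43 to 0.57. The call held in 6 of them, and it was lost when any naive library, memory replicate 1 or memory replicate 2 was left out (limma adjusted p 0.0704 to 0.124), but kept without memory replicate 3 (0.0286). It was also lost with no filter on low values (limma adjusted p = 0.0682), after quantile normalization (0.0614), and when the replicate number entered as a block (0.123). The strongest call came from voom on the recovered reads (0.00197).

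**Figure D2:**
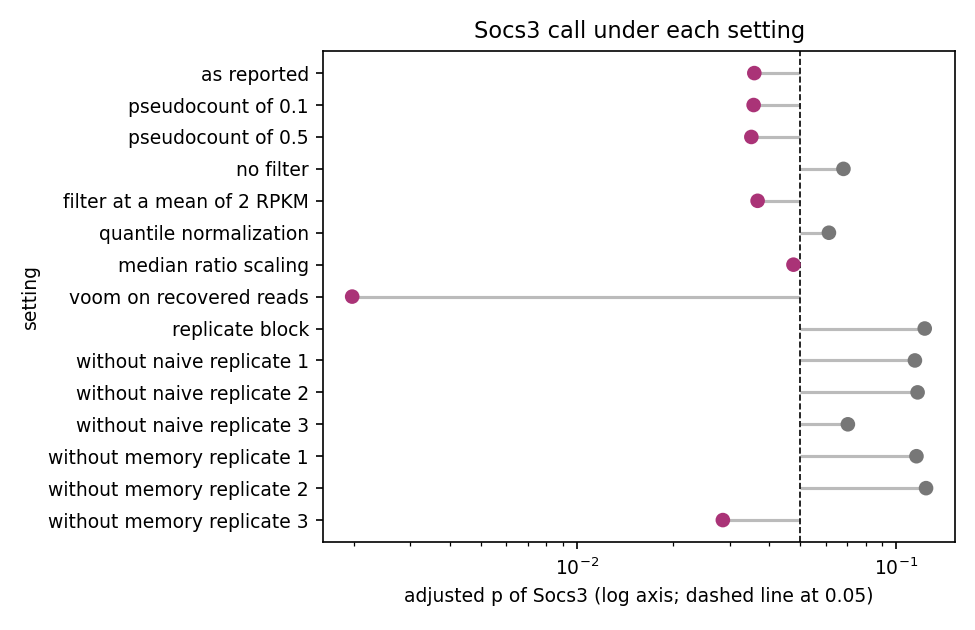
Adjusted p of the Socs3 difference (horizontal log axis) under the reported setting and 14 alternatives (vertical axis), with the threshold of 0.05 dashed. The values run from 0.00197 with voom to 0.124 without memory replicate 2, and 8 of the alternatives lie above the threshold.

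Cish, a STAT5 target, had the highest mean level in both groups. It lies on chromosome 9, 107296026 to 107302784, on the plus strand. Naive replicates 1 to 3 were at 13.0, 12.3 and 12.05 RPKM and memory replicates 1 to 3 at 12.9, 13.1 and 13.7. The groups overlapped, since naive replicate 1 exceeded memory replicate 1. The log2 change was 0.08 (SE 0.05, 95% interval -0.04 to 0.21), which was not called (limma adjusted p = 0.487). A pair of genes on the opposite strand, Gm17040 and Gm17041, share 261 and 479 exon bases with Cish. Their naive means were 12.002 and 56.9 RPKM, and their memory means 11.9 and 53.6. All 479 exon bases of Gm17041 lie in Cish exons, and it had 533 to 579 reads in each library, so the shared reads were not all set aside. No source used here gives the strand setting of the counting, and reads of Cish and of this pair may have been mixed.

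Socs2, the close relative of Cish, was at 8.50, 7.86 and 7.32 RPKM in naive and 6.36, 7.44 and 7.17 in memory replicates 1 to 3. The groups overlapped by a single library on each side, memory replicate 2 standing above naive replicate 3. The log2 change was -0.16 (SE 0.08, 95% interval -0.35 to 0.04), not called (limma adjusted p = 0.391). As a description, the ratio of Cish to Socs2 was 1.52 to 1.65 in naive and 1.76 to 2.02 in memory libraries, with no overlap. That of Cish to Socs1 was 0.918 to 1.14 and 1.08 to 1.36, and overlapped. Neither ratio was tested, and 24.1% of single genes tested also had no overlap between the groups. The Cish level in both ratios may include reads of the opposite strand. Socs2 lies on chromosome 10, 95385362 to 95417180.

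Socs1, the chief brake on interferon-gamma signalling, had the widest relative spread of the members among naive libraries. It was at 14.1 RPKM in naive replicate 1 and at 10.8 and 10.9 in naive replicates 2 and 3. Memory replicates 1 to 3 were at 11.9, 10.02 and 10.1, so the groups overlapped. The coefficient of variation was 15.8% over the naive and 9.81% over the memory replicates, where the median over 7405 tested genes of 2 to 20 RPKM was 8.72% and 8.09%. The log2 change of -0.14 (SE 0.12, 95% interval -0.42 to 0.13) was not called (limma adjusted p = 0.593), and without naive replicate 1 it was -0.03. The deposited gene model has 1220 bases of exon and spans chromosome 16, 10783808 to 10785536, whereas GENCODE M21 extends the gene to 10782240. Reads that fall in that additional end of the transcript were therefore not counted for Socs1.

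Socs4 to Socs7 gave no call, and the 95% intervals of their log2 changes reached from -0.15 at the lowest to 0.25 at the highest. On chromosome 14, 47276931 to 47296098, Socs4 was at 9.52, 9.68 and 9.78 RPKM in naive and 9.09, 9.51 and 10.8 in memory replicates 1 to 3. The memory libraries spread around the naive ones, with a coefficient of variation of 9.16% against 1.32%. The log2 change was 0.02 (95% interval -0.15 to 0.19), and its sign was negative under quantile normalization, under median ratio scaling and without memory replicate 3. Socs5 (chromosome 17, 87107679 to 87137583), which like Socs4 is linked to the epidermal growth factor receptor, was at 8.48, 8.36 and 8.99 in naive and 9.16, 8.84 and 8.57 in memory libraries. Its groups overlapped, and the log2 change was 0.04 (95% interval -0.10 to 0.17).

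Socs6, linked to insulin and stem cell factor receptors, was the least abundant member at 2.74, 2.90 and 2.80 RPKM in naive and 2.91, 3.07 and 3.01 in memory libraries. Its groups did not overlap, but the closest pair, naive replicate 2 at 2.905 and memory replicate 1 at 2.907, were nearly equal. The log2 change of 0.07 (95% interval -0.11 to 0.24) fell to -0.00019 under quantile normalization. Socs7 (chromosome 11, 97362551 to 97398542), also linked to insulin signalling, was at 5.76, 5.54 and 6.14 in naive and 6.21, 6.47 and 6.23 in memory libraries. Its groups did not overlap, and the log2 change was 0.10 (95% interval -0.05 to 0.25). None of these 4 genes was called, with limma adjusted p from 0.479 to 0.94.

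**Figure D3:**
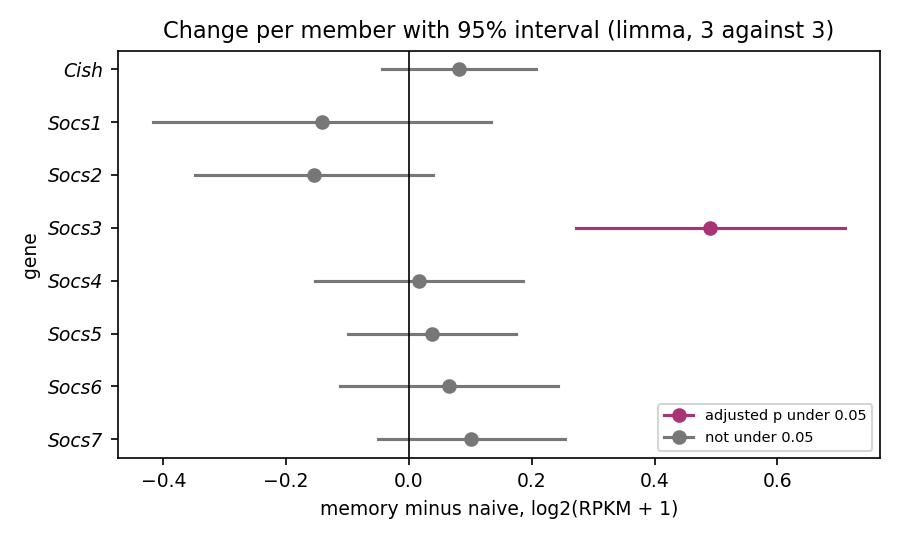
Log2 change of each member, as memory minus naive log2(RPKM + 1) (horizontal axis), with its 95% interval from limma. The interval of Socs3 (0.27 to 0.71) lies above 0, and those of the other 7 members include 0.

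Leaving Socs3 aside, the order of mean levels was the same in both groups. In naive libraries it ran Cish, Socs1, Socs4, Socs5, Socs2, Socs7, Socs3 and Socs6, from means of 12.4 down to 2.82 RPKM. The ranges overlapped for Cish and Socs1, for Socs5 and Socs2 and for Socs7 and Socs3. The order of Cish and Socs1 and that of Socs5 and Socs2 changed between naive libraries, while Socs7 ranked above Socs3 in each. In memory libraries Socs3 ranked 5 by its mean, above Socs2 and Socs7, and the order ended again with Socs6 at 2.99. There the ranges overlapped for Socs1 and Socs4, Socs4 and Socs5, Socs3 and Socs2, and Socs2 and Socs7. Of these pairs, only Socs2 and Socs7 kept the same order in each memory library. By library, Socs3 ranked 7 of 8 in each naive library, 5 in memory replicates 1 and 2, and 6 in memory replicate 3. Among all tested genes, the mean of Cish stood at percentile 69.4 in naive and 70.2 in memory libraries, and that of Socs3 at 48.6 and 57.5.

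The summed level of the 8 genes was 67.0, 62.7 and 63.6 RPKM in naive and 66.5, 66.9 and 66.4 in memory replicates 1 to 3 (exact two-sided permutation p = 0.4, n = 3 each). Naive replicate 1 alone made the groups overlap, and the difference of the means was 2.23 RPKM with it and 3.52 without it. Cish with Socs1, Socs2 and Socs3, the cytokine-induced subgroup, summed to 37.5 ± 2.57 in naive and 38.7 ± 0.75 in memory libraries (exact permutation p = 0.4, n = 3 each), a difference of 1.17 RPKM that was 2.65 without naive replicate 1. Socs4 to Socs7 summed to 26.9 ± 0.70 and 27.96 ± 0.62 (exact permutation p = 0.2, n = 3 each). Since 0.1 is the smallest p this design allows, these tests show neither a difference nor its absence. That subgroup made up 58.2% ± 2.04 of the family sum in naive and 58.0% ± 0.999 of it in memory (SD, n = 3 each). Within it, Socs3 was 7.32% to 8.75% of the family sum in naive and 10.3% to 12.7% in memory libraries, while Socs2 was 11.5% to 12.7% and 9.56% to 11.1%. The shares of a sum are tied to each other, so these are descriptions.

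The receptors upstream of SOCS proteins were in part higher in memory. Of 24 tested cytokine receptor genes, 9 were called higher and none lower, with a median log2 change of 0.16. Among all genes tested, 3.2% were called higher and the median was 0.02. Of these 9 calls, 5 held when each library was left out in turn. The calls of Il10ra, Il27ra, Il18r1 and Il18rap did not. The 2 most abundant receptors were not called: Il2rb, the chain of interleukin-2 and interleukin-15 signalling, was at 294 and 267 RPKM (limma adjusted p = 0.14), and Ifngr1 at 208 and 218 (0.331). The calls with the smallest adjusted p were Csf2ra and Csf2rb, the chains of the GM-CSF receptor, the G-CSF receptor gene Csf3r, and Ifngr2. Csf2ra was at 3.03 and 13.0, Csf2rb at 0.19 and 3.27, Csf3r at 0.17 and 1.55, and Ifngr2 at 0.14 and 1.56. The 5 calls that held are of genes at 0.14 to 3.03 RPKM in naive libraries. For Csf2rb, Csf3r, Ifngr2 and Il6ra the naive mean was under the filter of 0.5 RPKM, so they were tested only through their memory level. The summed macrophage and monocyte markers moved with these 5 genes (130 to 136 RPKM in naive, 619 to 648 in memory). So did the dendritic and MHC class II markers (125 to 135 and 410 to 418). The part of these markers was not tested. Among receptors of the gp130 type, named here after their values were seen, Il6ra was at 0.14 and 1.28 and called, and Il6st, the gene of gp130, at 0.63 and 1.19 and not called (limma adjusted p = 0.0796).

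Among the 4 JAK kinase genes, Jak2 was called higher and none lower, against 3.2% higher and 0.972% lower of all genes tested. This count says nothing about the JAK genes beyond Jak2 itself. Jak2, the kinase of the interferon-gamma and GM-CSF receptors, was at 97.1 and 118 RPKM, a log2 change of 0.28 (SE 0.03, limma adjusted p = 0.00655). The call held without each library in turn. Jak1 was at 129 and 126, Jak3 at 14.5 and 16.5 and Tyk2 at 13.1 and 15.8, and none of these 3 was called.

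The ubiquitin ligase that SOCS boxes recruit had no call among 10 tested genes. Over all genes tested 4.17% were called, so the small counts given here say nothing about these lists as a whole. Tceb1 and Tceb2, which encode elongin C and elongin B, were at 4.95 and 5.63 RPKM and at 31.4 and 36.7, and Nedd8, the modifier that activates cullins, at 126 and 136. The 15 genes of other JAK-STAT inhibitors had no call either. Ptprc, the gene of the phosphatase CD45, was at 209 and 205, Ptpn6 (SHP-1) at 199 and 201, Ptpn1 at 39.6 and 43.9 and Ptpn2 at 35.2 and 37.7. Cblb, a ubiquitin ligase gene, was at 18.7 and 20.7 and Usp18, which restrains interferon receptors, at 2.21 and 3.02. Of 15 other tested genes with a SOCS box, Asb2, an ankyrin repeat member, was called. It was at 56.9 and 75.2, a log2 change of 0.40 (SE 0.06, limma adjusted p = 0.0184), lost when any memory library was left out (up to 0.0805).

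Of the genes known to respond to STAT3 and STAT5, a few were called, all higher in memory. Of 14 tested STAT3-linked genes, Junb (53.0 and 72.4), Fos (1.47 and 6.72), Cebpb (7.26 and 13.7) and Tnfrsf1b (20.3 and 25.2 RPKM) were called, and the median was 0.28. Among all genes tested, 3.2% were called higher and the median log2 change was 0.02. The call of Tnfrsf1b was lost when any of the 6 libraries was left out (limma adjusted p up to 0.0842). Of 14 tested STAT5-linked genes, only Tnfrsf9, the gene of 4-1BB, was called (12.6 and 17.8), and the median was 0.03. The lists share genes with each other and with the immediate early list, and the differences between lists were not tested. The summed macrophage and monocyte markers also moved (130 to 136 RPKM in naive, 619 to 648 in memory), and their part in these calls was not tested. Among 7 tested genes of JAK-STAT cytokines none was called; Ifng was at 19.4 and 22.6 and Csf2 at 13.3 and 13.4.

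Markers of other cells moved with the groups. Among all genes tested, 3.2% were called higher and 0.972% lower. Of 20 macrophage and monocyte genes, 19 were tested and 13 called higher, and their summed level was 130 to 136 RPKM in naive and 619 to 648 in memory libraries. Lyz2, the lysozyme gene of myeloid cells, went from 37.8 to 448 RPKM (limma adjusted p = 6.9e-06). Without it, a sum added after the values were seen, the range was 93.4 to 99.5 in naive and 177 to 185 in memory libraries. Most of that naive sum was Ccr2, which was at 66.2 in naive and 67.9 in memory libraries and not called (limma adjusted p = 0.642). The Kupffer cell genes Vsig4, Timd4, Cd5l and Cd163, also named with their values known, were not called (limma adjusted p 0.178 to 0.704). Clec4f and Marco, Kupffer cell genes of the same list, were called higher. Clec4f was at 2.88 and 4.68 RPKM (limma adjusted p = 0.0134) and Marco at 1.18 and 7.01 (0.000936). The call of Marco held without each library in turn, and that of Clec4f was lost in 4 of these fits. None of the 20 was without reads in either group. Of 7 neutrophil genes in the table, Csf3r alone was tested and called, and the sum was 0.45 to 0.83 in naive and 2.08 to 2.70 in memory libraries, where S100a8, Cxcr2 and Camp had no reads. Csf3r passed the filter on low values only through its memory level (0.17 RPKM in naive and 1.55 in memory). Of 12 dendritic and MHC class II genes, 10 were tested and 7 called higher, with sums of 125 to 135 and 410 to 418. Most of the naive sum was Itgax, which was at 79.9 in naive and 76.8 in memory libraries and not called (limma adjusted p = 0.586). Flt3 and Clec9a had no reads in naive libraries. Leaving out each library in turn kept 9 of the 13 macrophage and monocyte calls and 5 of the 7 dendritic and MHC class II calls. The sum of 26 immediate early genes was 390 to 424 in naive and 465 to 476 in memory libraries, with 7 called higher and 1 lower of 24 tested, of which 6 calls held in every such fit. Macrophages and neutrophils also express Socs3, and the part of these markers in its difference was not tested. In bulk RNA, a change in the number of cells of a type and a change in RNA per cell cannot be told apart.

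**Figure D4:**
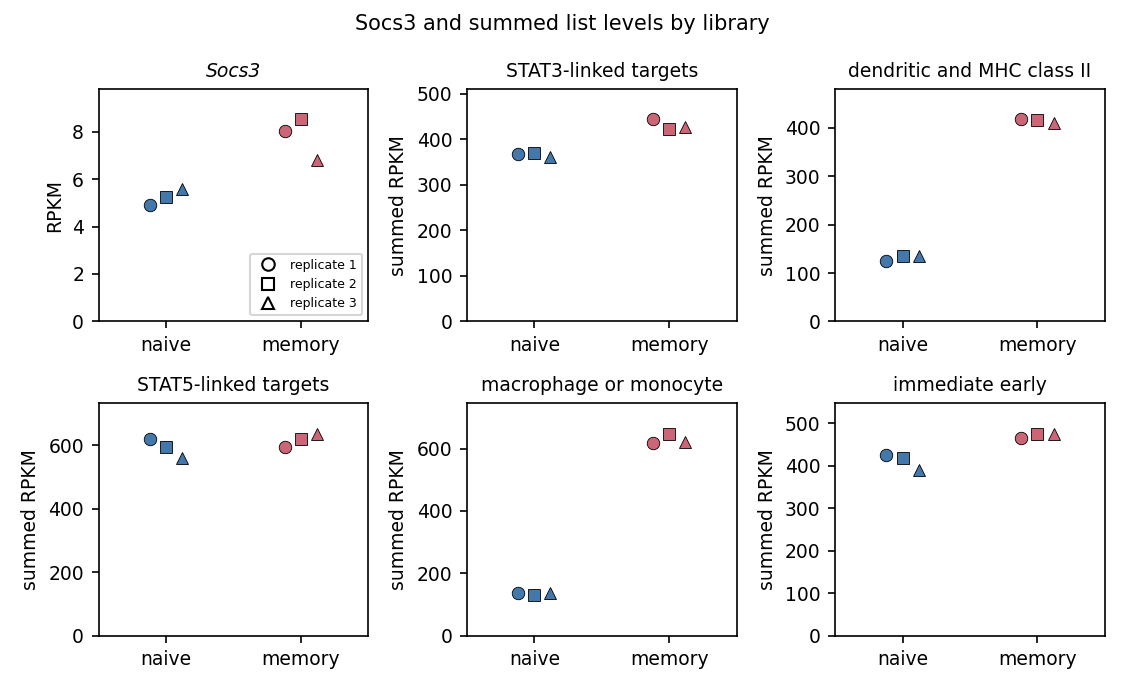
Level of Socs3 (RPKM) and summed RPKM of 5 gene lists (vertical axes, from 0) in each naive and memory library; symbols mark the replicate number. Memory libraries lie above naive ones for Socs3, the STAT3-linked, dendritic and MHC class II, macrophage or monocyte and immediate early sums, and the groups overlap for the STAT5-linked sum.

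The genes whose pattern over the 6 libraries was nearest to that of Socs3 were Sdc4, Gm36551, Sh3bp5 and Palm3, by root mean square distance of mean-centred log2(RPKM + 1) among 10349 genes of at least 2 RPKM. The distances were 0.0589, 0.0629, 0.0635 and 0.0701 on the log2 scale. Sdc4, which encodes the proteoglycan syndecan-4, was at 14.2 and 20.98 RPKM in naive and memory. Sh3bp5, a gene for an SH3-binding protein, was at 4.95 and 6.999 RPKM, and Palm3, a paralemmin gene, at 2.80 and 4.55. Gm36551 was at 8.83 and 12.2.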

How the data were processed

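Gene expression was measured in 3 naive and 3 memory libraries, grouped and numbered by the labels. Per the labels' protocols, TRIzol RNA went into a stranded mRNA library kit. The authors deposited RPKM values in a single table. Per the submitters' processing notes, the build was mm10 and the tools were STAR 2.5.3a and Subread 1.5.1 with featureCounts, and edgeR 3.12.1, with no role or order given. Whether 1 read stands for 1 molecule is unknown: 69.8% to 72.3% of counts from 1 to 10 were even, as when each mate of a pair counts. Dividing by the step per read gave whole reads for 100% of values (tolerance 0.01 of a read).

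The test was limma 3.58.1 (R 4.3.3) with a mean-variance trend on log2(RPKM + 1), a minimum mean of 0.5 RPKM, Benjamini-Hochberg adjustment over all 13793 tested and a threshold of 0.05. It was run first on simulated reads whose set changes were larger than that of Socs3. That run does not show how well a change of the Socs3 size is found. The filter used the mean over all 6 libraries, so a gene could pass through 1 group alone. The log2(RPKM + 1) scale understates changes of low genes. The labels do not say that replicates are separate animals, so p-values measure only spread that may be technical. Positions are those of the table (mm10). Exact permutation tests used scipy 1.17.1 and figures matplotlib 3.10.9 (Python 3.11.15). The alternatives were pseudocounts of 0.1 and 0.5, a minimum of 2 RPKM or none, median ratio scaling, quantile normalization, voom on recovered reads, a replicate block and each library left out.

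Members and gene lists were chosen with earlier results of these data known. Named genes were the members, per pathway list up to 4 with the smallest adjusted p and 2 with the highest level, per list of another cell type up to 3 called, and 4 genes nearest Socs3 in pattern. Other genes are named with their values known. A pathway gene and the list built around it are not reported here. Lists of ligase, T cell, B cell, hepatocyte and endothelial genes were computed in the same way.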

Additional observations from a re-analysis of the deposited data

How the results depend on the processing

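The Socs3 increase kept its direction under every alternative run, and its call ended with no filter (log2 change 0.49), under quantile normalization (0.46), with the replicate block (0.49) and when any library but memory replicate 3 was left out (0.43 to 0.57 over the 6 fits). The number of members called was then 0, and 0 to 1 over the fits that left out a library. No other member was called under any alternative (smallest limma adjusted p 0.169, Socs2 with voom). The sign of Socs4 turned under quantile normalization (-0.015), under median ratio scaling (-0.010) and without memory replicate 3 (-0.050, with 0.064 without memory replicate 1), and that of Socs6 under quantile normalization (-0.00019). Over all genes, 575 were called, 1141 with voom, 271 with the replicate block and 270 to 388 without a library. The cause was not tested, except that fits without a library have fewer samples. Same-numbered libraries did not deviate together (r = -0.08, -0.04 and -0.003 for numbers 1 to 3), and no library correlated best with its own number. This cannot decide whether the numbers pair the samples, since each group has only 3 libraries. With 3 libraries a group, the interval of Socs1 still allows a log2 change from -0.42 to 0.13.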

Other observations

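Other lists showed how the remaining lymphoid and liver genes stood in the same libraries, where 3.2% of all genes tested were called higher and 0.972% lower. Of 12 ILC1 marker genes, all were tested and Cxcr6, a chemokine receptor, was called lower (58.8 to 48.0 RPKM), a call that ended when naive replicate 1, naive replicate 2, memory replicate 1 or memory replicate 3 was left out (limma adjusted p up to 0.0657). Of 9 tested T cell genes, Cd3g, Lat and Tcrg-C1 were called lower. The call of Tcrg-C1 held without each library in turn, that of Lat was lost without memory replicate 2 (limma adjusted p = 0.0541) and that of Cd3g without any one library except naive replicate 3 (up to 0.0778). The summed level of the list was 426 to 473 RPKM in naive and 364 to 391 in memory libraries. Of 11 tested natural killer cell genes, 5 were called higher and 1 lower, among them Itgam (6.06 to 15.9) and Cx3cr1 (0.67 to 5.56) higher and Klra9 (31.6 to 24.6) lower. Without each library in turn 3 of the 6 calls held, and that of Klra9 was lost without memory replicate 2 or 3 (limma adjusted p up to 0.0517). Eomes, Itga2, Klrg1, Klra8 and Prf1 of the same list were not called (limma adjusted p 0.398 to 0.946). Monocytes also express Itgam and Cx3cr1, and the macrophage and monocyte marker sum moved from 130 to 136 RPKM (naive) to 619 to 648 RPKM (memory). Its part in these calls was not tested. Of 6 tested hepatocyte genes, Alb was called higher (1.40 to 3.86), a call lost without any one library except naive replicate 3 (limma adjusted p up to 0.11), and neither the 2 tested B cell genes nor Pecam1, the single tested endothelial gene, were called.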
